A study of Drosophila melanogaster with 32 samples.

Results

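The comparison described here is that of hpo RNAi against yki RNAi in somatic cells of the Drosophila melanogaster larval ovary at the middle of terminal filament formation, 96 hours after egg laying, when the animals were III instar larvae. It takes 6 of the 30 libraries that have counts among the 32 samples of the series, 3 for each RNAi condition. They were chosen by cell type, stage and target gene in the sample names. All genes with enough counts were compared, 10672 in number. The genotypes were bab:GAL4>UAS hpo RNAi, UAS GFP and bab:GAL4>UAS yki RNAi, UAS GFP. In both, the same driver switched on the hairpin and the green fluorescent protein. The driver is a GAL4 insertion at bab1, kept over the balancer TM6B, Tb, and hairpin and GFP are limited to somatic cells in which it is active. GFP-positive cells were sorted by flow cytometry, and their polyadenylated RNA was read as 50 bp single ends. The study set these knockdowns against each other to ask how Hippo signalling acts in the ovary as terminal filaments form. No library without a hairpin was used, so each difference is between the knockdowns and does not tell which of them departs from untreated cells. The study calls the 3 libraries of a group biological replicates. How many animals each holds is not given in the sources used here. The p-values measure only the spread between libraries within groups. It was estimated over all 18 somatic libraries, or all 30 libraries for the germ line contrast.

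In the Hippo pathway, the kinase Hippo with its partner Salvador activates the kinase Warts with its partner Mats, and Warts phosphorylates the coactivator Yorkie and keeps it out of the nucleus. Without that phosphorylation Yorkie enters the nucleus and, with the DNA-binding protein Scalloped, raises transcription of growth genes and of several upstream members of the pathway itself. Loss of Hippo therefore leaves Yorkie more active, and loss of Yorkie removes the output. In the larval ovary, somatic cells stack into terminal filaments, each of which starts an ovariole.

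In units of 1000000 counts, the libraries held 15.3, 36.0 and 55.1 with hpo RNAi and 42.5, 61.5 and 26.1 with yki RNAi. Library values are in the order of replicates 1, 2 and 3 throughout. Values are counts per 1000000 of the library total (CPM), which are not corrected for gene length and are compared only within a gene. These totals include mitochondrial counts. They made up 3.92, 13.7 and 13.2% of the hpo RNAi libraries and 7.66, 10.1 and 12.2% of the yki RNAi libraries. What part this had in the results was not tested. Yki RNAi replicate 3 stood apart from the other 5 libraries on the first principal component, at 145.37 against -55.44 to -14.97, and that component held 32.21% of the variance. Of 9 somatic ovary markers, Six4 had no count in the 6 libraries and the other 8 had counts in each. The transcription factor gene tj (traffic jam) had 265, 176 and 219 CPM in hpo RNAi cells and 242, 182 and 276 CPM in yki RNAi cells, but the summed level of the list was 1740.04, 1940.1 and 1652 CPM in hpo RNAi cells, below the 2378, 2177 and 2641 CPM in yki RNAi cells in every library. Of these markers 2, bab1 and Fas3, were called lower under hpo RNAi by the test given below, 6 had an unadjusted p under 0.05, and the median log2 change was -0.47. In sorted pools of cells, fewer cells of a type and less RNA per cell cannot be told apart, and the part of this marker difference in the results was not tested. Of the germ line markers, osk had no count in any library and vas had between 3.50 and 15.6 CPM in hpo RNAi cells, against 1.46 to 2.65 CPM in yki RNAi cells. The summed level of 12 germ line markers was 255 to 420 CPM in hpo RNAi cells and 269 to 424 CPM in yki RNAi cells, most of it from Sxl, which somatic cells also express. The 9 hemocyte markers summed to 195, 290.5 and 201 CPM in hpo RNAi cells and 169.7, 212 and 239 CPM in yki RNAi cells, nearly all from Pxn, ush, crq and srp. Of the rest, NimC1, Sr-CI and He had no count, and Hml, the hemocyte gene for hemolectin, reached at most 1.11 CPM. The 8 fat body markers summed to 1.03 to 8.93 CPM in hpo RNAi cells and 2.06 to 4.56 CPM in yki RNAi cells. Of the tested germ line, fat body, muscle, hemocyte and neuron markers, 0 were called by edgeR, with 0, 1, 2, 0 and 1 unadjusted p under 0.05, and DESeq2 called 1 fat body marker. Over all genes tested edgeR called 2.5%.

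A gene was called at an adjusted p under 0.05 (edgeR's quasi-likelihood test with Benjamini-Hochberg adjustment over all tested genes). Of 10672 genes, 267 (2.5%) were called, 41 (0.384%) higher and 226 (2.12%) lower under hpo RNAi than under yki RNAi. Each count of called list members is to be read against these shares. The median log2 fold change was 1.05 among the higher genes and -1.46 among the lower ones, and -0.0042 over all genes tested. The log2 fold change was at least 1 in size for 24 of the higher and 170 of the lower genes. The 3 libraries of each group did not overlap for 258 of the 267 called genes, against 13.3% of all genes tested (5.46% with hpo RNAi above and 7.85% with it below). In 18 called genes, all lower, no hpo RNAi library had a count, and no called gene was without counts under yki RNAi. When gene length trends between libraries were removed, 79 genes were higher and 206 lower under hpo RNAi. Leaving out hpo RNAi replicate 3 left 166 called genes, and a fit of only the 6 compared libraries called 137.

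**Figure D1:**
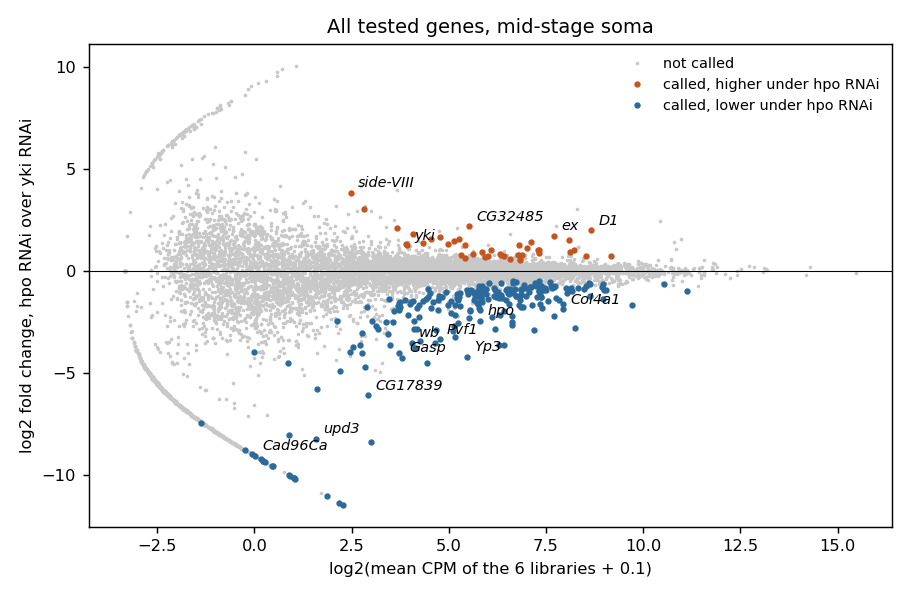
Each point is a tested gene, with the mean level of the 6 libraries, as log2 of CPM plus 0.1, across and the log2 fold change (hpo RNAi to yki RNAi) upward. Orange points are the 41 genes called higher and blue points the 226 called lower under hpo RNAi; the curved edges are genes with no count in the libraries of 1 group.

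The targeted genes were checked first. The gene hpo (FBgn0261456, chromosome arm 2R, 19493996 to 19496856, minus strand) had 19.6, 16.8 and 16.6 CPM in hpo RNAi cells and 75.9, 103 and 102 CPM in yki RNAi cells. Every hpo RNAi library was below every yki RNAi library. Its mean was 17.6 ± 1.66 CPM in hpo RNAi cells, against 93.5 ± 15.2 CPM in yki RNAi cells (SD, n = 3 each), a log2 fold change of -2.44 (SE 0.35, adjusted p = 0.000423). The gene yki (FBgn0034970, 2R, 24065975 to 24068485, minus strand) had 25.0, 19.4 and 19.9 CPM in hpo RNAi cells and 7.86, 6.34 and 12.02 CPM in yki RNAi cells. These libraries did not overlap either, and the log2 fold change was 1.27 (SE 0.31, adjusted p = 0.0325). Both targets differed in the direction of the labels. The call for yki was lost on leaving out any library but yki RNAi replicate 3, with log2 fold changes of 1.09 to 1.3 and adjusted p from 0.0734 (without hpo RNAi replicate 2) to 0.17 (without yki RNAi replicate 2), with length trends removed (1.20, 0.0725) and in a fit of only the 6 compared libraries (1.28, 0.125). The hpo gene overlaps Rep on the annotation, and the strand that was counted is not given in the sources used here.

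Apart from the targets, no member of the core cassette was called. The list of the core and the partners of Yorkie held 18 genes, and 16 were not called. Its median log2 fold change was 0.04. The kinase gene wts had 85.4, 110.0 and 88.6 CPM in hpo RNAi cells and 74.0, 61.8 and 137 CPM in yki RNAi cells, overlapping ranges with a log2 fold change of 0.04 (SE 0.23, adjusted p = 0.998). Its partner mats had a log2 fold change of 0.18 (SE 0.19) and sav, the partner of hpo, of 0.21 (SE 0.28). Levels of sd, the gene of the DNA-binding partner Scalloped, were 264, 308 and 277 CPM in hpo RNAi cells and 368, 300.4 and 404 CPM in yki RNAi cells. Its ranges overlapped and the adjusted p was 0.288. Tgi, a corepressor that competes with Yorkie for Scalloped, had 205, 169.8 and 167 CPM in hpo RNAi cells, above the 156, 125 and 129 CPM in yki RNAi cells in every library, without a call (log2 change 0.38, SE 0.16, adjusted p = 0.306).

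Upstream regulators were called only in the higher direction, 4 of 29 tested, against 0.384% of all genes tested called higher. The 4 were ex, kibra, crb and ed. Expanded, the product of ex, is a membrane-associated activator of the Hippo kinase cascade and a transcriptional target of Yorkie. The gene ex (FBgn0004583, 2L, 431227 to 448701, plus strand) had 295, 395 and 278 CPM in hpo RNAi cells and 81.4, 79.2 and 129 CPM in yki RNAi cells. The lowest hpo RNAi library was above the highest yki RNAi library. Its mean was 322 ± 63.0 CPM in hpo RNAi cells and 96.4 ± 28.0 CPM in yki RNAi cells (SD, n = 3 each), with a log2 fold change of 1.73 (SE 0.22, adjusted p = 0.000105), and the call held without any 1 of the 6 libraries. The gene ex overlaps crq on the annotation. Kibra is a WW-domain scaffold that acts with Expanded. Its gene had 244, 214 and 193 CPM in hpo RNAi cells and 103, 80.3 and 129 CPM in yki RNAi cells, again without overlap (log2 change 1.03, SE 0.20, adjusted p = 0.00592).

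Crumbs, an apical membrane protein that recruits Expanded, had transcript levels of 484, 308 and 304 CPM in hpo RNAi cells and 175, 141 and 238 CPM in yki RNAi cells. The groups did not overlap, and the log2 fold change was 0.94 (SE 0.23, adjusted p = 0.0279). The call for crb was lost without hpo RNAi replicate 1 (0.77, adjusted p = 0.139), hpo RNAi replicate 3 (1.02, 0.0515), yki RNAi replicate 1 (0.88, 0.119) and yki RNAi replicate 2 (0.79, 0.16). Echinoid is a cell adhesion molecule that stabilises Salvador at the membrane. The gene ed had 186, 238 and 180.5 CPM in hpo RNAi cells and 63.2, 72.9 and 91.1 CPM in yki RNAi cells, with no overlap and a log2 fold change of 1.39 (SE 0.29, adjusted p = 0.00961). It was not called without hpo RNAi replicate 2 (1.22, adjusted p = 0.0563) or yki RNAi replicate 1 (1.259, 0.0637). Without yki RNAi replicate 1, 2 upstream regulators were called. The remaining 25 regulators included those of the Fat and Dachsous branch. For ft, the atypical cadherin receptor gene, the values were 14.9, 21.3 and 8.79 CPM in hpo RNAi cells and 16.8, 18.5 and 59.7 CPM in yki RNAi cells, and for its ligand gene ds 180.1, 237 and 167 CPM in hpo RNAi cells and 144, 170.0 and 197 CPM in yki RNAi cells. Both pairs of ranges overlapped. The median log2 fold change of the 29 regulators was 0.02.

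**Figure D2:**
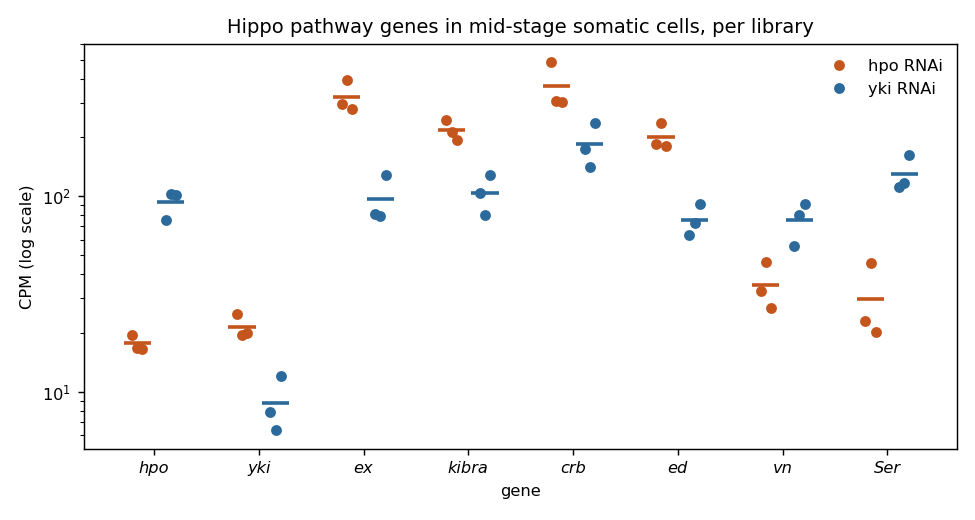
Counts per 1000000 on a log axis, a point per library and a bar at the mean of 3, for the targets hpo and yki and the called upstream regulators and Yorkie targets, with hpo RNAi left of yki RNAi. For yki, ex, kibra, crb and ed all hpo RNAi points are above the yki RNAi points, and for hpo, vn and Ser they are below.

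Tested genes known as transcriptional targets of Yorkie in other Drosophila tissues numbered 17. Of these 3 were called higher and 3 lower under hpo RNAi, against 0.384% and 2.12% of all genes tested. The median log2 fold change of the 17 was -0.15. The higher ones were ex, kibra and crb, which act upstream of Hippo themselves. The lower ones were the secreted or membrane-bound ligands Ser, vn and upd3. Ser encodes Serrate, a ligand of Notch. It had 23.0, 45.8 and 20.3 CPM in hpo RNAi cells and 112, 117 and 163 CPM in yki RNAi cells, groups that did not overlap (log2 change -2.14, SE 0.40, adjusted p = 0.00411). The gene vn encodes Vein, a neuregulin-like ligand of the epidermal growth factor receptor. It had 32.7, 46.2 and 26.8 CPM in hpo RNAi cells and 55.8, 80.3 and 91.6 CPM in yki RNAi cells, a log2 fold change of -1.13 (SE 0.24, adjusted p = 0.00959). Without hpo RNAi replicate 1 it was -1.02 (adjusted p = 0.0556), without hpo RNAi replicate 3 it was -0.98 (0.0774) and without yki RNAi replicate 3 it was -0.96 (0.0516).

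The cytokine gene upd3, which activates JAK/STAT signalling, had 2 counts over the 3 hpo RNAi libraries, all in replicate 3 (0, 0 and 0.0363 CPM), and 4.14, 4.73 and 8.62 CPM in yki RNAi cells. The ratio of the pooled levels, yki RNAi over hpo RNAi, was 283 with an exact 95% interval of 78.0 to 2339 that covers counting error only (adjusted p = 0.00242). Growth and survival targets were not called. Diap1, which encodes an inhibitor of caspases, averaged 116 ± 12.4 CPM in hpo RNAi cells and 92.8 ± 5.55 CPM in yki RNAi cells (adjusted p = 0.465), CycE, which drives entry into S phase, 56.9 ± 9.15 CPM in hpo RNAi cells and 69.4 ± 5.52 CPM in yki RNAi cells (adjusted p = 0.479), and the growth regulator gene Myc 498 ± 93.6 CPM in hpo RNAi cells and 675 ± 267 CPM in yki RNAi cells (adjusted p = 0.447; SD, n = 3 each). The Diap1 libraries did not overlap, while the CycE and Myc libraries did. Of 37 tested cell cycle and replication genes none was called by edgeR or DESeq2, against 2.5% of all genes tested called by edgeR. Of the 37, 1 had an unadjusted p under 0.05, and their median log2 fold change was 0.15. The 89 cytosolic ribosomal protein genes likewise held no call by edgeR and 1 by DESeq2, with 3 unadjusted p under 0.05 and a median of -0.08.

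The EGF receptor pathway held 4 called genes of 21 tested, all lower under hpo RNAi, against 2.12% of all genes tested called lower. Beside vn these were pnt, aos and kek1, each a gene whose transcription the pathway raises in other Drosophila tissues. The other 17 tested genes were not called, and sty, Mkp3, edl and rho of the same list were not among the calls. Whether the output of the pathway differed was not tested. Pointed, an ETS transcription factor at the end of the pathway, had transcript levels of 23.5, 26.5 and 23.0 CPM in hpo RNAi cells and 64.8, 73.8 and 118 CPM in yki RNAi cells (log2 change -1.83, SE 0.24, adjusted p = 0.000127). For aos, which encodes the secreted inhibitor Argos, they were 17.0, 19.9 and 21.0 CPM in hpo RNAi cells and 64.2, 59.9 and 95.1 CPM in yki RNAi cells (-1.93, SE 0.24, adjusted p = 0.000119). Neither gene's groups overlapped, and both calls held without any 1 library. The transmembrane inhibitor gene kek1 had 205, 207 and 206 CPM in hpo RNAi cells and 328, 331 and 416 CPM in yki RNAi cells (-0.82, SE 0.17, adjusted p = 0.00934). Its call was lost without hpo RNAi replicate 1 (-0.75, adjusted p = 0.054) or yki RNAi replicate 3 (-0.68, 0.0526). The receptor gene Egfr averaged 257 ± 37.2 CPM in hpo RNAi cells and 259.6 ± 18.5 CPM in yki RNAi cells (adjusted p = 0.985), and the ligand gene spi 117 ± 9.61 CPM in hpo RNAi cells and 145 ± 14.7 CPM in yki RNAi cells (adjusted p = 0.407; SD, n = 3 each). The median of the whole list was -0.06. The number of its genes called was 2 without hpo RNAi replicate 1 and without yki RNAi replicate 3, and 6 without hpo RNAi replicate 2.

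Other ligand and receptor genes were lower as well. Pvf1, a ligand of the PDGF and VEGF receptor related protein, had 8.41, 3.47 and 3.40 CPM in hpo RNAi cells and 54.7, 67.9 and 24.4 CPM in yki RNAi cells (log2 change -3.35, SE 0.38, adjusted p = 4.67e-05). Its receptor gene Pvr had 54.4, 66.4 and 56.6 CPM in hpo RNAi cells and 129, 126 and 117 CPM in yki RNAi cells (-1.08, SE 0.20, adjusted p = 0.00367). The groups of both genes were apart in every library. They were the 2 called genes of 10 in the FGF and PVR lists, whose median was -0.85, against 2.12% of all genes tested called lower. Of the other ligand genes, Pvf2 was at -2.12 (SE 0.69, adjusted p = 0.141) and Pvf3 at -1.54 (SE 1.07, adjusted p = 0.657).

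In the Notch pathway 2 of 21 tested genes were called, both of them the ligand genes and both lower. Over all genes tested 2.12% were called lower. The other 19 genes of the list, among them its E(spl) genes, were not called. Delta had 25.4, 23.7 and 23.1 CPM in hpo RNAi cells and 77.5, 71.3 and 116 CPM in yki RNAi cells (log2 change -1.90, SE 0.36, adjusted p = 0.00485). As with Ser, the groups did not overlap. The receptor gene N averaged 575 ± 116 CPM in hpo RNAi cells and 753 ± 164 CPM in yki RNAi cells (SD, n = 3 each), with overlapping libraries (adjusted p = 0.49). Netrins and Robo receptors, known from axon guidance, made up 3 calls of 13 tested in the Slit and Robo list, against 2.12% of all genes tested called lower. NetA had 161, 160.2 and 193 CPM in hpo RNAi cells and 335, 448 and 291 CPM in yki RNAi cells (-1.08, SE 0.20, adjusted p = 0.00367), and NetB averaged 43.3 ± 8.54 CPM in hpo RNAi cells and 100.1 ± 34.5 CPM in yki RNAi cells (SD, n = 3 each; -1.23, adjusted p = 0.00503). The receptor gene robo2 had 269.8, 249.7 and 201 CPM in hpo RNAi cells and 551, 489 and 613 CPM in yki RNAi cells (-1.22, SE 0.21, adjusted p = 0.00244). All 3 were lower and free of overlap. The ligand gene sli had a log2 fold change of -0.06 (SE 0.21, adjusted p = 0.99).

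Basement membrane genes had 5 called members of 18 tested, all lower under hpo RNAi, against 2.12% of all genes tested called lower. Their median log2 fold change was -0.90. In 10 of the 18 every hpo RNAi library was below every yki RNAi library, against 7.85% of all genes tested. Both collagen IV chains were among the 5. Col4a1 had 88.7, 151 and 78.9 CPM in hpo RNAi cells and 327, 269.6 and 556 CPM in yki RNAi cells (-1.86, SE 0.35, adjusted p = 0.00431). The other chain, vkg, had 53.9, 68.9 and 42.7 CPM in hpo RNAi cells and 157, 136 and 257 CPM in yki RNAi cells (-1.75, SE 0.46, adjusted p = 0.0467). Neither chain's groups overlapped, but the call for vkg was lost on leaving out any of the 6 libraries, with values of -1.99 (without hpo RNAi replicate 2) to -1.41 (without yki RNAi replicate 3) and adjusted p from 0.0589 to 0.193.

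The laminin alpha chain gene wb had 0.717, 3.69 and 3.02 CPM in hpo RNAi cells and 28.3, 41.5 and 21.3 CPM in yki RNAi cells (-3.51, SE 0.47, adjusted p = 0.000189). The other alpha chain, LanA, averaged 4229.5 ± 808 CPM in hpo RNAi cells and 5362 ± 1598 CPM in yki RNAi cells (SD, n = 3 each) with overlapping libraries and an adjusted p of 0.601. LanB1, a chain shared by both laminins, had 2096, 2328 and 1823 CPM in hpo RNAi cells, below 2734, 3039 and 4391 CPM in yki RNAi cells in every library, and was not called (-0.73, SE 0.21, adjusted p = 0.079). The linker gene Ndg (nidogen) had 48.0, 23.9 and 20.1 CPM in hpo RNAi cells and 68.9, 76.4 and 67.7 CPM in yki RNAi cells (-1.27, SE 0.32, adjusted p = 0.0384). It was called in the fit without hpo RNAi replicate 1, and in no other fit that left out a library, where values were -1.32 (without yki RNAi replicate 1) to -1.07 (without hpo RNAi replicate 3) and adjusted p 0.0687 to 0.193. The metalloprotease gene Mmp1, which degrades matrix, had 61.0, 54.7 and 44.6 CPM in hpo RNAi cells and 203, 198 and 134 CPM in yki RNAi cells (-1.77, SE 0.37, adjusted p = 0.0101). Without hpo RNAi replicate 3 it was -1.68 (adjusted p = 0.0682). The perlecan gene trol had 3796, 3726 and 3135 CPM in hpo RNAi cells and 2218, 2367 and 2757 CPM in yki RNAi cells, so that its hpo RNAi libraries were above the others, and was not called (0.51, SE 0.21, adjusted p = 0.279). The list had 2 calls without hpo RNAi replicate 3, 3 without yki RNAi replicate 2, and 11 by DESeq2.

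Of 7 markers of terminal filaments, inv, bab1 and Delta were called lower under hpo RNAi and none was called higher, against 2.12% and 0.384% of all genes tested. The log2 change was negative for 6 of the 7, with a median of -1.13, and 5 had an unadjusted p under 0.05 by edgeR. In 4 every hpo RNAi library was below every yki RNAi library, and DESeq2 called 4. The homeobox gene inv (invected) had 3.98, 8.95 and 6.76 CPM in hpo RNAi cells and 24.5, 20.4 and 13.7 CPM in yki RNAi cells, without overlap (-1.56, SE 0.40, adjusted p = 0.0398). Its call was lost without hpo RNAi replicate 1 (-1.26, adjusted p = 0.161), hpo RNAi replicate 3 (-1.59, 0.122), yki RNAi replicate 1 (-1.39, 0.149) and yki RNAi replicate 2 (-1.50, 0.122). The BTB-domain factor gene bab1, whose locus carries the driver insertion in both groups, had 36.4, 24.7 and 25.1 CPM in hpo RNAi cells and 65.7, 52.3 and 65.7 CPM in yki RNAi cells (-1.13, SE 0.19, adjusted p = 0.00242). Its paralog bab2 averaged 416 ± 83.0 CPM in hpo RNAi cells and 588 ± 217 CPM in yki RNAi cells (SD, n = 3 each; adjusted p = 0.313). The signal gene hh, expressed by terminal filaments, had 89.2, 59.0 and 54.2 CPM in hpo RNAi cells and 78.3, 54.3 and 47.4 CPM in yki RNAi cells (0.14, adjusted p = 0.973). The 7 markers summed to 637, 849.8 and 614 CPM in hpo RNAi cells and 884, 801 and 1295 CPM in yki RNAi cells, overlapping ranges.

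Called genes that differed most were named by rule, 10 in each direction by fold change, among those without overlap whose higher group averaged at least 10 CPM. Among those higher under hpo RNAi, the gene of D1, a chromatin protein that binds AT-rich satellite DNA, had the most counts, 758, 601 and 582 CPM in hpo RNAi cells and 182, 75.9 and 226 CPM in yki RNAi cells (log2 change 1.98, SE 0.35, adjusted p = 0.00292). CG32485 had 63.8, 74.1 and 86.6 CPM in hpo RNAi cells and 14.6, 12.98 and 21.1 CPM in yki RNAi cells (2.2, SE 0.25, adjusted p = 4.4e-05). Every library of these genes was higher under hpo RNAi. Trim9, a tripartite motif ubiquitin ligase gene, averaged 26.3 ± 6.18 CPM in hpo RNAi cells and 7.25 ± 2.80 CPM in yki RNAi cells (1.82, SE 0.35, adjusted p = 0.00582; SD, n = 3 each). Naglu, the gene of a lysosomal N-acetylglucosaminidase, averaged 34.9 ± 2.77 CPM in hpo RNAi cells and 11.5 ± 4.80 CPM in yki RNAi cells (1.58, adjusted p = 0.00615). The elongase gene bond, which overlaps an antisense RNA gene, averaged 40.9 ± 12.9 CPM in hpo RNAi cells and 13.3 ± 4.86 CPM in yki RNAi cells (1.64, adjusted p = 0.00341). CG1607 (2.11), CG43693 (1.51) and ex (1.73) complete the genes of this group whose calls held without any 1 library.

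In the remaining pair the call was lost in some of these fits. The immunoglobulin superfamily gene side-VIII had 15.7, 4.25 and 10.8 CPM in hpo RNAi cells and 0.776, 1.23 and 0 CPM in yki RNAi cells (3.82, SE 0.90, adjusted p = 0.0216). Without hpo RNAi replicate 1 its value was 3.48 (adjusted p = 0.0614), without hpo RNAi replicate 3 3.72 (0.0611) and without yki RNAi replicate 1 3.87 (0.081), and without yki RNAi replicate 2 it was 4.61 (0.0324). CG10512, which overlaps Targ2, had 98.8, 23.9 and 51.3 CPM in hpo RNAi cells and 23.2, 14.8 and 19.0 CPM in yki RNAi cells (1.55, SE 0.34, adjusted p = 0.0126). It was not called without hpo RNAi replicate 1 (1.04, adjusted p = 0.0966) or yki RNAi replicate 2 (1.41, 0.0873).

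**Figure D3:**
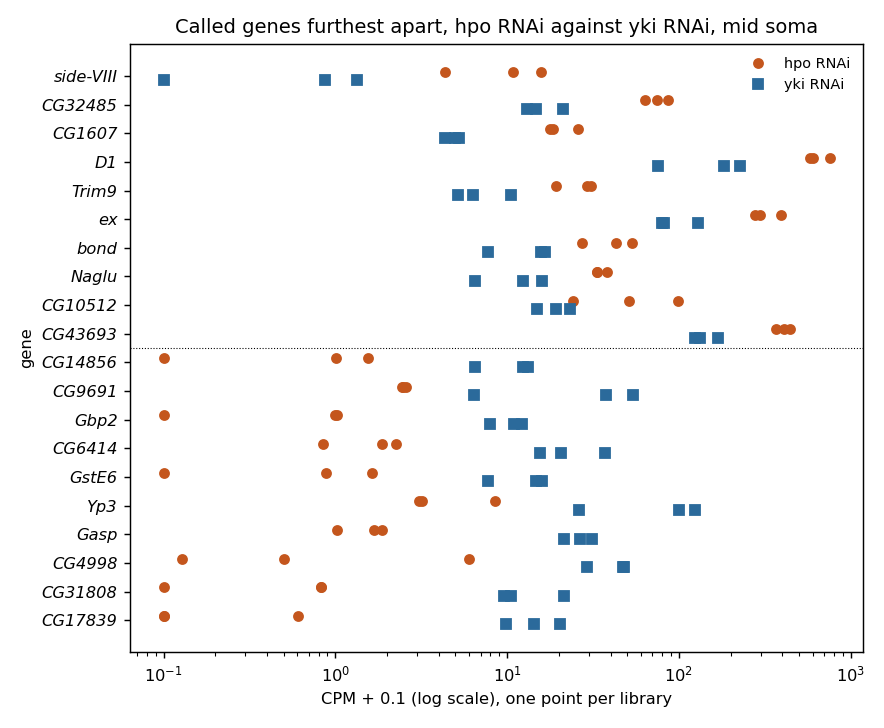
Counts per 1000000 plus 0.1 on a log axis, a point per library, orange circles for hpo RNAi and blue squares for yki RNAi. The 10 genes above the dotted line were the highest under hpo RNAi by fold change and the 10 below it the lowest, and points at 0.1 are libraries with no count.

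Of the 10 genes named as lowest under hpo RNAi, Gasp had the smallest p. It encodes a chitin-binding protein of cuticle and tracheal lumen. Its levels were 1.76, 0.917 and 1.58 CPM in hpo RNAi cells and 31.2, 21.3 and 26.4 CPM in yki RNAi cells (log2 change -4.24, SE 0.42, adjusted p = 2.01e-05). Gasp stood on the list of tracheal markers, of which trh, the gene that specifies trachea, reached at most 1.09 CPM in hpo RNAi cells and 0.699 CPM in yki RNAi cells. The tracheal FGF receptor gene btl had 2.80, 3.67 and 3.05 CPM in hpo RNAi cells and 8.42, 8.95 and 15.0 CPM in yki RNAi cells, without a call (adjusted p = 0.172), and uif at most 2.35 CPM in hpo RNAi cells and 0.494 CPM in yki RNAi cells. The 4 markers summed to 4.58 to 6.91 CPM in hpo RNAi cells and 31.0 to 41.4 CPM in yki RNAi cells. Most of the sum in yki RNAi cells came from Gasp, which was named for its fold change. The gap between the sums is therefore not a separate result.

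Yolk protein genes had 2 of 4 members called, both lower under hpo RNAi, against 2.12% of all genes tested called lower. Yp3 had 8.35, 2.97 and 3.11 CPM in hpo RNAi cells and 100.4, 124 and 26.0 CPM in yki RNAi cells (-4.21, SE 0.87, adjusted p = 0.0085), and was not called without hpo RNAi replicate 2 (-3.99, adjusted p = 0.056) or replicate 3 (-4.0, 0.065). Yp2 had 0.522, 0 and 0.418 CPM in hpo RNAi cells and 6.14, 12.4 and 7.58 CPM in yki RNAi cells (-4.89, SE 0.90, adjusted p = 0.00485), and -4.28 without hpo RNAi replicate 2. Yolk protein genes are best known from fat body and adult follicle cells. The fat body genes for larval serum proteins and apolipophorin reached at most 4.96 CPM in any hpo RNAi library and 1.61 CPM in any yki RNAi library.

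CG17839 had 0, 0 and 0.509 CPM in hpo RNAi cells and 14.3, 20.1 and 9.69 CPM in yki RNAi cells (-6.08, SE 0.91, adjusted p = 0.000721). Its fitted value was -12.04 without hpo RNAi replicate 3, where no count is left in that group, so that its size rests on that library. CG31808, which overlaps Cyt-c-d, had 0, 0.722 and 0.727 CPM in hpo RNAi cells and 9.43, 10.5 and 21.4 CPM in yki RNAi cells (-4.69, SE 0.73, adjusted p = 0.00108). The cytokine-like peptide gene Gbp2 averaged 0.605 ± 0.524 CPM in hpo RNAi cells and 10.2 ± 2.19 CPM in yki RNAi cells (-3.98, adjusted p = 0.00542), and CG9691 2.39 ± 0.0732 CPM in hpo RNAi cells and 32.5 ± 24.1 CPM in yki RNAi cells (-3.78, adjusted p = 0.00306; SD, n = 3 each), or -3.17 without yki RNAi replicate 2. The glutathione S-transferase gene GstE6 (-4.03), CG6414 (-4.01), CG14856 (-3.75) and CG4998 (-4.51) were called with adjusted p from 0.0125 to 0.0467.

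Those 4 genes were not called in every fit that left out a library. CG14856 was at -3.77 (adjusted p = 0.0556) without hpo RNAi replicate 1, at -3.15 (0.00958) without hpo RNAi replicate 2 and at -4.86 (0.0199) without hpo RNAi replicate 3. CG6414 was at -3.67 (0.0777) without hpo RNAi replicate 3 and -3.54 (0.0706) without yki RNAi replicate 2. GstE6 was at -3.97 (0.073) without hpo RNAi replicate 1, -3.44 (0.00969) without hpo RNAi replicate 2, -5.29 (0.0204) without hpo RNAi replicate 3, -3.95 (0.0502) without yki RNAi replicate 1 and -3.82 (0.0639) without yki RNAi replicate 2. CG4998 was called in 1 of 6 such fits, at -7.43 (0.00313) without hpo RNAi replicate 1, the library that held most of its hpo RNAi counts. In the other 5 its value was -4.71 (without yki RNAi replicate 3) to -3.91 (without hpo RNAi replicate 2), with adjusted p of 0.0552 to 0.179.

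Transcription factor genes that respond to ecdysone, the steroid hormone of moulting, were called in opposite directions. Of 19 genes tested, Eip78C was lower and Hr4 higher, against 2.12% called lower and 0.384% called higher over all genes tested. Eip78C had 13.1, 13.1 and 13.02 CPM in hpo RNAi cells and 45.6, 46.7 and 67.2 CPM in yki RNAi cells (-2.04, SE 0.25, adjusted p = 0.000105). Hr4 had 6.39, 28.4 and 2.25 CPM in hpo RNAi cells and 2.38, 1.79 and 0.230 CPM in yki RNAi cells, overlapping groups (3.03, SE 0.67, adjusted p = 0.0147). Without hpo RNAi replicate 2 its value was 1.33 (adjusted p = 0.28), without yki RNAi replicate 2 3.20 (0.0589) and without yki RNAi replicate 3 2.61 (0.0531). The receptor gene EcR averaged 108 ± 14.1 CPM in hpo RNAi cells and 113 ± 48.3 CPM in yki RNAi cells (SD, n = 3 each; adjusted p = 0.983).

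In the JNK pathway, Ets21C, an ETS factor gene induced by JNK in damaged tissue, and Mmp1 were called, 2 of 11 tested, with a list median of -0.52. Both were lower, against 2.12% of all genes tested called lower. Ets21C had 14.3, 11.8 and 13.3 CPM in hpo RNAi cells and 82.1, 59.4 and 33.5 CPM in yki RNAi cells (-2.16, SE 0.37, adjusted p = 0.00242). The pathway's feedback phosphatase gene puc had 154, 139 and 167 CPM in hpo RNAi cells, below 209, 236 and 212 CPM in yki RNAi cells in every library, and was not called (-0.53, SE 0.16, adjusted p = 0.11). Without hpo RNAi replicate 3, 1 JNK gene was called. Of the cytoskeletal genes, jar, which encodes myosin VI, was lower, with 75.1, 38.4 and 48.5 CPM in hpo RNAi cells and 166, 174 and 163 CPM in yki RNAi cells (-1.68, SE 0.19, adjusted p = 4.4e-05). No other of 23 actin and myosin genes was called. Of 14 cadherin genes tested, 2 were lower. The flamingo gene stan, a planar polarity cadherin, had 9.46, 5.36 and 5.49 CPM in hpo RNAi cells and 24.3, 30.3 and 38.2 CPM in yki RNAi cells (-2.25, SE 0.39, adjusted p = 0.00269). Cad96Ca had no count under hpo RNAi and 3.55, 1.27 and 0.651 CPM in yki RNAi cells (adjusted p = 0.00592). Against a floor of 3 counts over the hpo RNAi group, it was at least 67.0-fold lower.

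Of 22 insulin and TOR genes, 2 were lower. Ilp6, an insulin-like growth factor gene, had 97.5, 101 and 92.9 CPM in hpo RNAi cells and 196, 182 and 319 CPM in yki RNAi cells (-1.28, SE 0.28, adjusted p = 0.0126). It was not called without hpo RNAi replicate 1 (-1.21, adjusted p = 0.0593), hpo RNAi replicate 3 (-1.27, 0.062) or yki RNAi replicate 3 (-0.96, 0.0833). Sdr, a secreted decoy of the insulin receptor, had 19.9, 15.4 and 16.4 CPM in hpo RNAi cells and 46.4, 53.3 and 63.5 CPM in yki RNAi cells (-1.69, SE 0.35, adjusted p = 0.00915), and -1.69 with an adjusted p of 0.0519 without hpo RNAi replicate 3. Buffy, a Bcl-2 family gene, was the 1 call among 14 apoptosis genes, with 4.04, 2.36 and 3.20 CPM in hpo RNAi cells and 19.7, 26.0 and 6.55 CPM in yki RNAi cells (-2.48, SE 0.45, adjusted p = 0.00341). The groups of these 3 genes did not overlap. Further lists held few calls, all of them lower under hpo RNAi except in the Beat and Side families. These were upd3 among 13 JAK/STAT genes, rdx and inv among 16 Hedgehog genes, magu among 17 BMP genes, drl among 21 Wnt genes, Vinc among 16 integrin adhesion genes and tyn among 12 zona pellucida genes. Over all genes tested 2.5% were called, and 226 of the 267 calls were lower, so this direction is not particular to these lists. Among 18 somatic ovary transcription factors bab1 and inv were called, and among 9 somatic ovary markers bab1 and Fas3. The call of rdx was lost without hpo RNAi replicates 1 or 2 or yki RNAi replicates 2 or 3 (-0.94 to -0.79, adjusted p up to 0.107). That of drl was lost without hpo RNAi replicates 1 or 3 or yki RNAi replicates 2 or 3 (-1.86 to -1.45, up to 0.118), and its value was -2.68 without hpo RNAi replicate 2. That of Vinc was lost without hpo RNAi replicates 2 or 3 or yki RNAi replicates 1 or 2 (-0.77 to -0.63, up to 0.0852), and that of magu without hpo RNAi replicate 3 (-1.08, 0.0588). Of 24 Beat, Side, Dpr and DIP genes, side-VIII and beat-IIIc were higher, and beat-IIIc (1.3, adjusted p = 0.0411) was called in none of the 6 fits (1.09 to 1.52, adjusted p 0.0513 to 0.166). No heat shock, innexin, amine receptor or respiratory chain gene was called, of 18, 7, 6 and 70 tested, with 0, 1, 2 and 3 unadjusted p under 0.05 by edgeR. DESeq2 called 0, 1, 2 and 0 of them. With 2.5% of all genes called by edgeR, few or no calls fall to lists of these sizes.

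In the fit of only the 6 compared libraries, 26 of the named genes were not called, with adjusted p of 0.0519 to 0.336. Among the Hippo and Yorkie genes these were yki, crb and vn. Among the other list members they were kek1, NetB, Ndg, inv, Hr4, Buffy, Cad96Ca, Yp2, rdx, magu, drl, Vinc and beat-IIIc. Among the genes furthest apart they were side-VIII, CG10512, Naglu, bond, CG17839, CG31808, Gbp2, CG14856, GstE6 and CG4998. With length trends removed, yki, vkg, Ndg, inv, rdx and CG4998 were not called (adjusted p 0.0571 to 0.103). RLE scaling lost the calls of vkg and CG4998 (0.0521 and 0.0503), and a stricter filter on low counts that of vkg (0.0526).

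**Figure D4:**
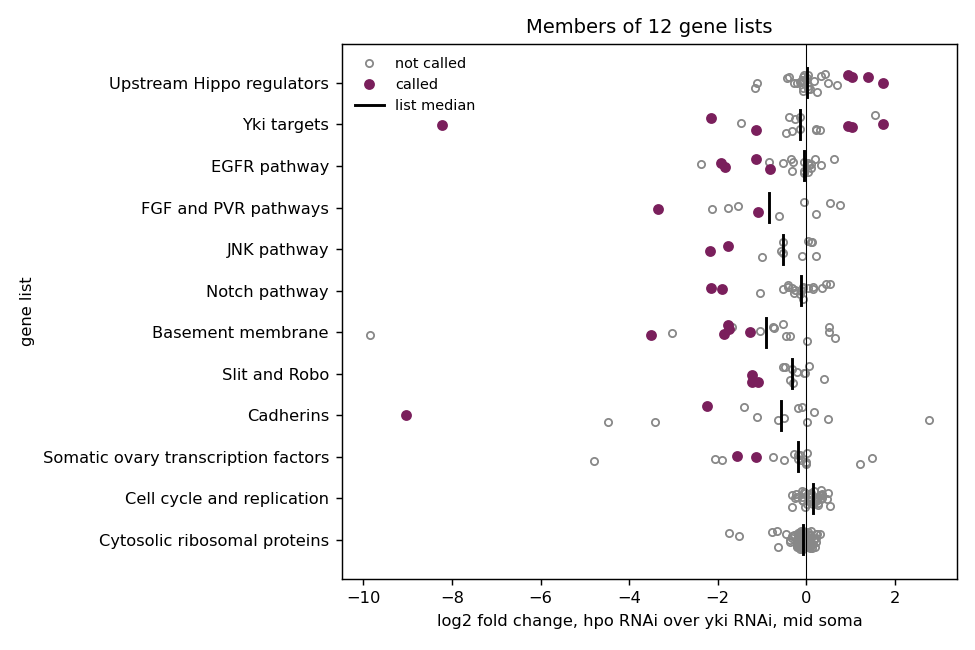
The log2 fold change (hpo RNAi to yki RNAi) in the mid soma for the tested members of 12 gene lists, a circle per gene, filled where called, with a bar at the list median. All called members of the EGFR, FGF and PVR, JNK, Notch, basement membrane and Slit and Robo lists are below 0, and the 4 called upstream Hippo regulators are above 0.

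The earlier and later somatic stages, at 72 and 120 hours, were compared in the same way, with 261 genes (2.45%) and 110 genes (1.03%) called. Of the 267 genes called in the mid stage, 98 were also called in the early stage with the same sign, 28 were called at all 3 stages and 151 at neither of the other stages. Being called at 1 stage only does not show that an effect differed, so the difference between stages was tested itself. The effect differed between mid and early for 14 genes (0.131% of those tested) and between mid and late for 43 genes (0.403%). A fit of only the compared libraries kept 3 of the 14 and all 43. With the replicate number as a block, 2 of the 14 and 38 of the 43 were kept. Differences given for single genes were not followed through these alternatives. Among the 267 called in the mid stage, 8 differed from early and 30 from late.

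The targeted gene hpo had log2 fold changes of -2.58, -2.44 and -2.54 at 72, 96 and 120 hours, and the differences mid minus early (0.15, SE 0.47) and mid minus late (0.11, SE 0.47) were not called. The 3 values for ex were 1.79, 1.73 and 1.24. The laminin gene wb was lower under hpo RNAi in the mid stage but had 26.3 ± 10.9 CPM in hpo RNAi cells and 29.3 ± 14.1 CPM in yki RNAi cells early, and 234 ± 48.6 CPM in hpo RNAi cells and 389 ± 118 CPM in yki RNAi cells late (SD, n = 3 each). Its mid effect differed from both, by -3.37 (SE 0.61, adjusted p = 0.0272) and -2.79 (SE 0.60, adjusted p = 0.0492). For jar the early means were 143 ± 8.90 CPM in hpo RNAi cells and 177 ± 38.5 CPM in yki RNAi cells, and the late means 89.1 ± 1.03 CPM in hpo RNAi cells and 126 ± 15.9 CPM in yki RNAi cells. Its mid effect differed from the early one by -1.36 (SE 0.26, adjusted p = 0.0356) and from the late one by -1.19 (SE 0.26, adjusted p = 0.0491).

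Ets21C was at 89.6 ± 18.4 CPM in hpo RNAi cells and 59.7 ± 24.9 CPM in yki RNAi cells early, a log2 fold change of 0.56 (SE 0.37) that was not called, and its mid effect differed from it by -2.72 (SE 0.51, adjusted p = 0.0356). For robo2 the early means were 326 ± 86.2 CPM in hpo RNAi cells and 257 ± 87.0 CPM in yki RNAi cells, and the mid effect differed by -1.56 (SE 0.30, adjusted p = 0.0356). Gasp and Eip78C had mid effects that differed from the late ones by -4.14 (SE 0.55, adjusted p = 0.00207) and -1.66 (SE 0.35, adjusted p = 0.0372). In these genes the mid effect was the most negative of the 3 stages. That follows in part from their choice, since each had a called negative difference from another stage. Over all genes, the called difference was positive for 5 of 14 against early and 13 of 43 against late.

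**Figure D5:**
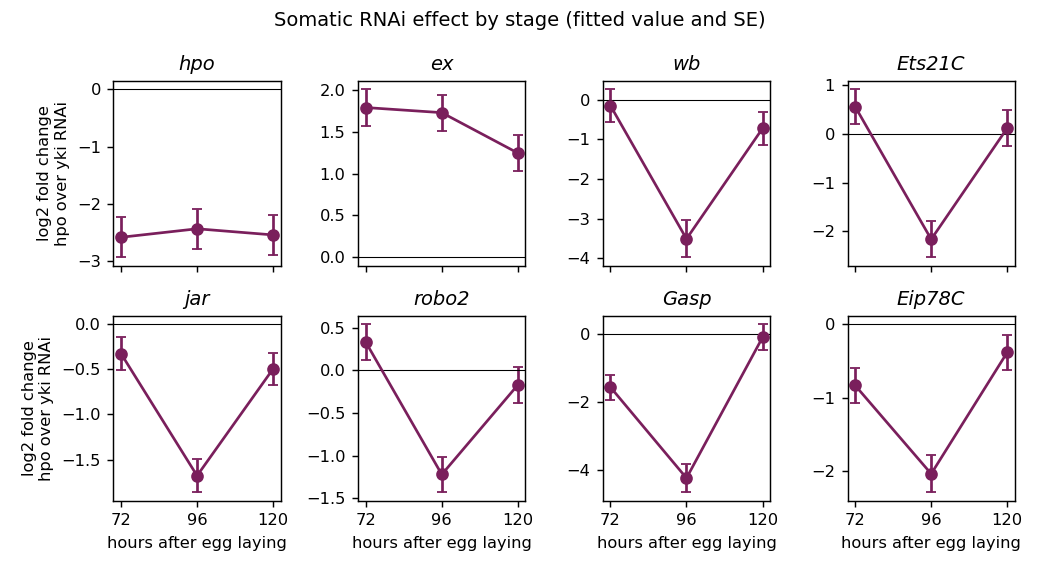
Fitted log2 fold change (hpo RNAi to yki RNAi) in the soma at 72, 96 and 120 hours after egg laying, with bars of 1 SE, for 8 genes; the vertical scale differs between panels and the horizontal line is 0. The values of hpo stay near -2.5 at the 3 stages, while those of wb, Ets21C, jar, robo2, Gasp and Eip78C are lowest at 96 hours. Each of the latter genes had a called negative difference of the mid effect from another stage.

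A call of opposite sign at another stage was present in 2 of the named genes. The ankyrin repeat gene wake, which sets the timing of sleep in adult flies, was at 59.5 ± 6.77 CPM in hpo RNAi cells and 127 ± 17.0 CPM in yki RNAi cells in the mid stage (log2 change -1.12, adjusted p = 0.00244), and at 197 ± 54.7 CPM in hpo RNAi cells and 114 ± 16.1 CPM in yki RNAi cells early (0.77, adjusted p = 0.0357). The difference between these effects was -1.90 (SE 0.27, adjusted p = 0.00726). The gene nord, which encodes a secreted protein with a neuron-derived neurotrophic factor domain, averaged 73.2 ± 13.3 CPM in hpo RNAi cells and 134 ± 12.4 CPM in yki RNAi cells in the mid stage (-0.90, adjusted p = 0.00122). Late, it averaged 105 ± 8.20 CPM in hpo RNAi cells and 67.3 ± 6.08 CPM in yki RNAi cells (0.65, adjusted p = 0.0286), and the mid effect differed by -1.55 (SE 0.20, adjusted p = 0.00207; SD, n = 3 each).

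Germ line cells of the same stage, in which nos:GAL4 and not bab:GAL4 drove the hairpins together with UAS-Dcr-2, were compared through the difference between the somatic and germ line effects. The effect of hpo RNAi over yki RNAi differed between soma and germ line for 20 of 12089 genes (0.165%). A fit of only the compared libraries kept 1 of the 20, and the differences of single genes were not followed through the alternatives. In germ line cells alone 16 genes were called (0.132%), and 7 of these were among the 267. Pvf1, with its mid somatic effect of -3.35, averaged 2.09 ± 0.237 CPM in hpo RNAi cells and 1.58 ± 0.796 CPM in yki RNAi cells in the germ line, and the difference was -3.69 (SE 0.56, adjusted p = 0.00412). The gene pnt was at 51.6 ± 7.47 CPM in hpo RNAi cells and 57.5 ± 6.32 CPM in yki RNAi cells there (difference -1.60, SE 0.28, adjusted p = 0.0181), and ed at 181 ± 4.09 CPM in hpo RNAi cells and 259 ± 51.2 CPM in yki RNAi cells (difference 1.99, SE 0.38, adjusted p = 0.0296). Levels of ex in the germ line were 13.5 ± 3.42 CPM in hpo RNAi cells and 11.5 ± 3.18 CPM in yki RNAi cells (SD, n = 3 each), and its difference of 1.58 (SE 0.35) had an adjusted p of 0.0579. The difference for hpo itself was 0.55 (SE 0.49, adjusted p = 0.871).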

How the data were processed

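Sorted somatic cells of both RNAi conditions were compared at 96 hours, with the other stages and the germ line as context. The authors deposited estimated counts (expected counts) per gene, summed over sequencing runs and not normalized; 86.5% of values were whole to within 1e-06, and all were rounded to whole counts. Per the submitters' processing notes, bcl2fastq 2.2, RSEM 1.3.3, STAR 2.7.6a and DESeq2 1.26.0 were used. Build, annotation and strand are not given in the sources used here. Positions are from BDGP6.54, which held 16206 of the 16257 gene IDs. Of 32 samples, 30 had a column; the 2 others were not analysed here, and 18 further columns were not used.

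In R 4.3.3, edgeR 4.0.16 was run with TMM scaling, filterByExpr (minimum count 10) and quasi-likelihood fits to 18 somatic libraries in 6 groups (10672 genes), or of all 30 libraries for the germ line contrast (12089 genes). Adjusted p is Benjamini-Hochberg over all tested genes. SE is the log2 fold change divided by the square root of F. CPM are counts per 1000000 of the library total, and totals of 15.3 to 61.5 times 1000000 in the 6 libraries set their counting precision. Alternatives were RLE, DESeq2 1.42.0, no filter, at least 5 CPM in 3 libraries, only the compared libraries, a replicate block, removal of length trends and leaving out each library; then the group's other libraries are taken to vary like the rest. The somatic fit with TMM, RLE, DESeq2, a replicate block and removal of length trends was tested on simulated data. That covered the mid and the mid minus early contrasts. The other fits and contrasts were not simulated. The simulated counts had the spread estimated by the fit, no outlying library and no stage effect beyond the changes put in. How the fits act where those are present was not tested.

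Members and lists were chosen with earlier results of these data known. Named genes were hpo and yki, the 10 furthest apart in each direction (at least 10 CPM in the higher group, no overlap), called list members, the 2 with the smallest p per difference test, and all members of the Hippo core and Yorkie target lists.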

Additional observations from a re-analysis of the deposited data

Results flagged for a closer look

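Each result below is a named gene whose log2 fold change (hpo RNAi to yki RNAi) in the mid soma differed, by a test of the difference, from that at another stage or in germ line cells. Adjusted p is from edgeR. These differences were not followed gene by gene through the alternatives described below.

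Against the early soma, 6 genes differed. The difference, mid minus early, was -1.9 for wake (SE 0.272, adjusted p = 0.00725), -3.37 for wb (SE 0.611, 0.0271), -2.72 for Ets21C (SE 0.511, 0.0356), -1.36 for jar (SE 0.256, 0.0356) and -1.56 for robo2 (SE 0.295, 0.0356). For CG31176 the difference was 9.08 (SE 0.96, adjusted p = 0.000447). CG31176 had 5.80, 5.14 and 5.27 CPM in hpo RNAi cells and 30.3, 22.6 and 33.7 CPM in yki RNAi cells in the mid stage, and no count under hpo RNAi early against 10.3 ± 5.13 CPM in yki RNAi cells (SD, n = 3), so the size of that difference is not exact.

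Against the late soma, the difference was positive for CG1607 (3.12, SE 0.521, adjusted p = 0.00724), bond (2.3, SE 0.412, 0.0127) and CG32485 (1.59, SE 0.336, 0.0391). CG1607 averaged 20.6 ± 4.43 CPM in hpo RNAi cells and 4.76 ± 0.457 CPM in yki RNAi cells in the mid stage, and 2.53 ± 0.904 CPM in hpo RNAi cells and 5.13 ± 0.957 CPM in yki RNAi cells late (SD, n = 3 each). It was negative for Gasp (-4.14, SE 0.552, adjusted p = 0.00207), nord (-1.55, SE 0.202, 0.00207), upd3 (-8.25, SE 1.659, 0.0305), Eip78C (-1.66, SE 0.346, 0.0372), jar (-1.19, SE 0.256, 0.0491) and wb (-2.79, SE 0.605, 0.0492). The value for upd3 rests on 2 counts under hpo RNAi in the mid stage and is not exact. Late, upd3 averaged 0.951 ± 0.483 CPM in hpo RNAi cells and 0.937 ± 0.402 CPM in yki RNAi cells.

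Against germ line cells of the same stage, the difference was 2.23 for CG32485 (SE 0.341, adjusted p = 0.00412), 1.99 for ed (SE 0.378, 0.0296) and 5.73 for CG10512 (SE 1.08, 0.0296). It was -3.69 for Pvf1 (SE 0.557, 0.00412), -1.6 for pnt (SE 0.281, 0.0181), -1.3 for jar (SE 0.245, 0.0296) and -4.73 for CG31808 (SE 0.935, 0.0326). CG32485 averaged 25.7 ± 5.36 CPM in hpo RNAi cells and 25.0 ± 2.50 CPM in yki RNAi cells in germ line cells (SD, n = 3 each). CG10512 averaged 0.0355 ± 0.0615 CPM in hpo RNAi cells and 1.07 ± 1.10 CPM in yki RNAi cells there.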

How the results depend on the processing

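Counts of called genes follow for the mid soma (267 as reported), mid minus early (14), mid minus late (43) and mid soma minus germ line (20). DESeq2 called 520, 210, 164 and 198, a fit of only the compared libraries 137, 3, 100 and 1, and no filter 322, 25, 86 and 34. The stricter filter gave 9 for mid minus early, and removal of length trends 43 for soma minus germ line. Leaving out each library gave 166 to 253, 8 to 54, 22 to 55 and 5 to 45. Differences between stages and cell types therefore varied more with the setting than the mid count did. The causes were not tested. With the replicate number as a block the counts were 270, 3, 57 and 15; same-numbered mid libraries correlated at 0.101, -0.057 and -0.01 in their deviations from group means, so the numbers were not taken to pair samples. RLE gave 260, 14, 42 and 22. Of 63 called named genes, 39 were called without any 1 library and 29 under every alternative; over 1164 gene and alternative pairs, 0 changed sign with a call and 114 lost the call, 26 of them in the fit of only the compared libraries. DESeq2 added the call of msn, and 151 of the 166 calls left without hpo RNAi replicate 3 were among the 267. Counting error limits genes near 1 CPM.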

Other observations

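Several called genes outside the rule for named genes were chosen after their values were seen. The LIM-homeodomain gene ap (apterous), a selector of dorsal wing identity, had 14.9, 8.72 and 15.6 CPM in hpo RNAi cells and 153, 184 and 140.5 CPM in yki RNAi cells in the mid soma. Its log2 fold change was -3.63 (SE 0.31, adjusted p = 2.33e-06 by edgeR), with values of -3.71 early and -3.18 late. The mid groups did not overlap. Con (Connectin), a leucine-rich repeat adhesion molecule gene, had 2.41, 2.69 and 6.67 CPM in hpo RNAi cells and 59.9, 39.1 and 39.9 CPM in yki RNAi cells (-3.53, SE 0.54, adjusted p = 0.000929).

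Imaginal disc growth factors, secreted chitinase-like proteins, had 4 of 5 tested members called lower under hpo RNAi, against 2.12% of all genes tested. The family was chosen after its values were seen, so this count is not a test of the family. Idgf1 had 5.74, 6.64 and 8.25 CPM in hpo RNAi cells and 66.1, 106 and 19.5 CPM in yki RNAi cells (-3.21, adjusted p = 0.000192). Idgf2, its neighbour on 2L, had 5.28, 11.1 and 7.38 CPM in hpo RNAi cells and 51.6, 95.9 and 35.8 CPM in yki RNAi cells (-2.94, adjusted p = 0.000206). Idgf4, on the X chromosome, had 27.1, 4.36 and 6.39 CPM in hpo RNAi cells and 177, 211 and 41.2 CPM in yki RNAi cells (-3.63, adjusted p = 0.00272). Idgf3, next to Idgf2, had 29.5, 13.1 and 17.2 CPM in hpo RNAi cells and 86.7, 111 and 24.5 CPM in yki RNAi cells (-1.95, adjusted p = 0.0136). The groups of Idgf3 overlapped and those of the other 3 did not, and the lowest yki RNAi library of all 4 was replicate 3. Idgf6 was not called (-0.66, adjusted p = 0.0644). The calls of Idgf1, Idgf2 and Idgf4 held without any 1 library. Idgf3 was not called without hpo RNAi replicate 2 (-1.75, adjusted p = 0.0849), hpo RNAi replicate 3 (-1.89, 0.0777) or yki RNAi replicate 2 (-1.50, 0.101). In the fit of only the 6 compared libraries, Idgf3 (adjusted p = 0.127) and Idgf4 (0.0549) were not called.

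Amalgam and Neurotactin bind each other as a secreted ligand and its membrane receptor, and their genes were called in opposite directions. Ama had 63.0, 96.9 and 71.3 CPM in hpo RNAi cells and 555, 529 and 517 CPM in yki RNAi cells (-2.80, SE 0.21, adjusted p = 8.27e-07). Nrt had 718, 769 and 704 CPM in hpo RNAi cells and 422, 359 and 512 CPM in yki RNAi cells (0.74, SE 0.18, adjusted p = 0.024). Both genes were free of overlap. Ama was called in all 6 fits that left out a library. Nrt was called in 2 of them, and not without hpo RNAi replicates 2 or 3 or yki RNAi replicates 1 or 2 (0.64 to 0.74, adjusted p 0.0872 to 0.148), nor in the fit of only the 6 compared libraries (0.75, 0.125).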
